A study of Mus musculus with 2 samples.

Results

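Matricellular proteins are secreted proteins that sit in the extracellular matrix and act mainly as signals to cells rather than as load-bearing fibers. The 10 genes described here, *Spp1*, *Thbs1*, *Thbs2*, *Postn*, *Tnc*, *Sparc*, *Ccn1*, *Ccn2*, *Fn1* and *Cthrc1*, were found by their symbols among the 33696 genes counted in each of 2 single-cell libraries of the mouse abdominal aorta, and all 10 were present. Both libraries came from male C57BL/6J mice that were aged 5 months at the start of treatment and were sampled at day 28. The Control mice received normal saline, and the AngII+HS mice received angiotensin II at 1500 ng/kg/min, a peptide that constricts vessels and raises blood pressure, together with drinking water that held 0.9% NaCl and 0.2% KCl. Each condition is 1 library of pooled tissue. The number pooled is given as 5 mice in the series design but as 1 mouse (Control) and 2 mice (AngII+HS) in the sample protocol. With 1 library per condition no difference between the conditions has a replicate check, no test between conditions was possible, and all intervals below are 95% intervals for counting error only.

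In the vessel wall these proteins are made mostly by vascular smooth muscle cells (VSMCs), by adventitial fibroblasts and, after injury, by invading macrophages. Osteopontin (*Spp1*), thrombospondin 1 (*Thbs1*) and fibronectin (*Fn1*) bind integrins and other surface receptors on leukocytes and wall cells. Periostin (*Postn*), tenascin C (*Tnc*), thrombospondin 2 (*Thbs2*), SPARC and CTHRC1 are typical of developing, healing or fibrotic tissue, and the CCN proteins encoded by *Ccn1* and *Ccn2* are known targets of the mechanically regulated YAP and TEAD factors.

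RefSeq promoter sequences were found for 6 of the 10 genes, *Spp1*, *Thbs2*, *Postn*, *Tnc*, *Sparc* and *Ccn1*, and 3 are shown, *Ccn1* as a member that was not 2-fold higher in any of the 4 classes compared below, and *Thbs2* and *Postn* as members that were higher in fibroblasts. In the 250 bases before each RefSeq start, matches on either strand were sought to the TATA box, TATAAA, and to the TEAD motif, GGAATG. The AP-1 motif, TGANTCA, and the SRF CArG box were sought too and had no match in the 6 genes. *Ccn1* had a TEAD match 103 bases before the start, on the reverse strand, and a TATA box 25 bases before it. The TATA box letters stood 126 bases before the start in *Thbs2*, on the reverse strand, 126 in *Tnc*, 211 in *Spp1* and 26 in *Postn*, and *Sparc* had no match. Of 32536 mouse promoter stretches of 250 bases, 12.3% held the TATA box letters, 12.6% the TEAD motif, 6.73% the AP-1 motif and 1.48% a CArG box. The sequences are written 5′ to 3′ on the strand of the gene with matches in capitals and were located on GRCm39 by exact match. Bases that the annotation counts as exon are left off, which takes the last 4 bases of *Thbs2* and the last 27 of *Postn*, with its TATA box, and leaves the 250 of *Ccn1* whole. Among the genes not shown, all 250 bases searched in *Spp1* and *Sparc* and 191 of those in *Tnc* count as exon. Their RefSeq starts lay 812, 3161 and 191 bases from the annotated gene starts.
Ccn1, chr3:145355741-145355990, minus strand: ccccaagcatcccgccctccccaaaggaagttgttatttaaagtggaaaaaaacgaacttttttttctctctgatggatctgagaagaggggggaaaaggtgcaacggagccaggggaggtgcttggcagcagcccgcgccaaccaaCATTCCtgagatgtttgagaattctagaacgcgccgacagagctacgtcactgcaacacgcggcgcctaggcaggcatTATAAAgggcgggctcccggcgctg
Thbs2, chr17:14914529-14914774, minus strand: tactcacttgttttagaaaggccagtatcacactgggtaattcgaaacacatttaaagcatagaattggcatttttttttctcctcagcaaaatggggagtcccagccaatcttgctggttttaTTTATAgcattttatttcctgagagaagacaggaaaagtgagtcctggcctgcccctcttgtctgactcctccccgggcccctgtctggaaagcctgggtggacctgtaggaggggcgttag
Postn, chr3:54268278-54268500, plus strand: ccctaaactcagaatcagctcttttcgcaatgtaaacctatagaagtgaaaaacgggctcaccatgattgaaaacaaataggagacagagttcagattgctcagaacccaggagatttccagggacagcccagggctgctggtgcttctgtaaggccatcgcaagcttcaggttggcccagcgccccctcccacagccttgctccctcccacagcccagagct

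After filtering and removal of likely doublets, 10269 Control cells with 75294050 UMIs and 19734 AngII+HS cells with 80581691 UMIs remained, with medians of 7274 and 3065.5 UMIs per cell. A UMI is a molecular tag that counts each captured RNA molecule once. Clusters made without the 10 genes were named from marker genes, so that each class is "like" the cell type whose name it carries below. There were 2609 Control and 4719 AngII+HS fibroblasts, 5464 and 888 VSMCs, 491 and 4469 macrophages, and 838 and 1203 vascular endothelial cells (VECs), and every marker on the list of each of these 4 classes was detected in at least 10% of its cells in both libraries. The names rest on these same lists, so this is not a separate check. In Control B cells all 7 VSMC markers passed the same share. VSMCs made up 53.2% of the Control cells (52.2 to 54.2%) and 4.50% of the AngII+HS cells (4.21 to 4.80%). The lengths of the barcode lists fit the opposite matrices. Each matrix was assigned to the condition of its own record, and were the matrices rather than the lists exchanged, every direction given here would be reversed.

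Levels are given as CPM, the UMIs of a gene per 1000000 UMIs of a class in a library. The T and B cells, 229 in the Control and 2092 in the AngII+HS library, served as the reference for free RNA, which enters droplets from broken cells. In the Control library they held no *Spp1*, *Thbs2* or *Cthrc1* UMI, where 3 UMIs would be 3.23 CPM. The other 7 genes lay between 9.69 CPM for *Tnc* and 94.8 CPM for *Fn1*. In the AngII+HS library the T and B cells held between 2.44 CPM of *Cthrc1* and 223 CPM of *Fn1*, with *Sparc* at 203, *Thbs1* at 87.2 and *Spp1* at 81.7 CPM. A class was taken as above free RNA where its level was at least 2 times that in the reference of its own library and the intervals were apart. By this measure fibroblasts held 9 of the 10 genes above free RNA in Control and all 10 in AngII+HS, VSMCs 8 and 9, VECs 6 and 6, and macrophages 3 and 3, which were *Spp1*, *Thbs1* and *Fn1* in both libraries. The share of all genes above free RNA was not computed, so these counts do not set the members apart from other genes. Of the 685 *Thbs1* UMIs in Control macrophages, 650 lay in the 40 cells of the *Arg1*-led cluster described below. The *C1qa*-led cluster, 441 of the 491 Control macrophages, held 17.8 CPM. This was less than 2 times the 11.8 CPM in Control T and B cells. For *Fn1* the *C1qa*-led cluster held 288 CPM in AngII+HS, less than 2 times the 223 CPM in T and B cells.

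**Figure D1:**
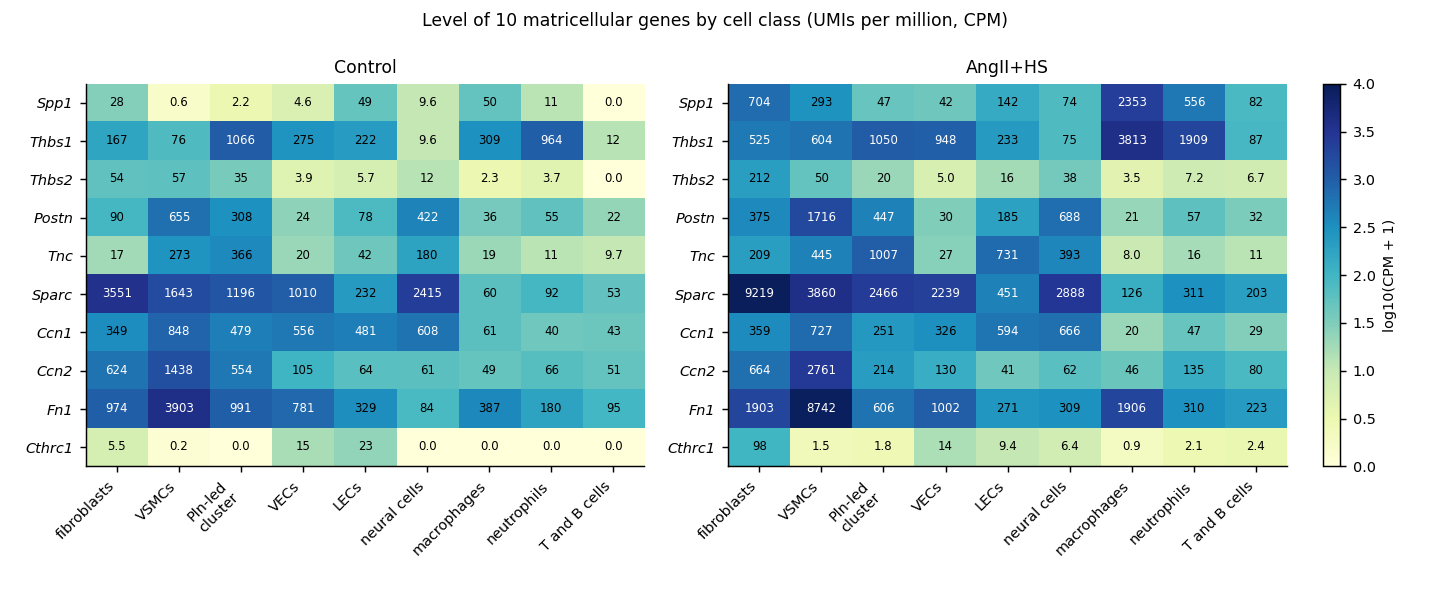
Level of each gene (rows) in 8 cell classes or clusters and in the T and B cells (columns) in the Control and the AngII+HS library, printed as CPM and colored by log10(CPM + 1). *Spp1* and *Thbs1* were highest in AngII+HS macrophages at 2353 and 3813 CPM, *Sparc* in AngII+HS fibroblasts at 9219 CPM and *Fn1* in AngII+HS VSMCs at 8742 CPM.

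To see how far each class differed between the libraries, genes with at least 100 UMIs in a class were compared. In fibroblasts 7 of 10 members were at least 2-fold higher in AngII+HS, where 5.15% of 11869 genes were, and none was 2-fold lower, where 4.52% of genes were. The median log2 ratio was 1.82 over the members and -0.12 over all genes compared. VSMCs had 5 of 9 members at least 2-fold higher (3.13% of 12251 genes) and none lower (6.73%), with medians of 1.16 and -0.04. In macrophages 4 of 8 members were at least 2-fold higher (8.99% of 9670 genes) and 2 lower (11.3%), with medians of 0.49 and -0.04. The 2 lower ones, *Tnc* and *Ccn1*, were not above free RNA in either library, and their number was 0 with the libraries merged without integration and 4 with free RNA subtracted. Without the *Arg1*-led cluster, described below, 2 members were higher. In VECs 3 of 9 were at least 2-fold higher (5.16% of 8933 genes) and none lower (3.79%), with medians of 0.36 and 0.06. *Spp1*, *Thbs1* and *Sparc* were on the higher side in all 4 classes. In CPM, however, *Sparc* in AngII+HS macrophages and *Spp1* in AngII+HS VECs were below the T and B cells of that library. In UMIs per cell they were not below.

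**Figure D2:**
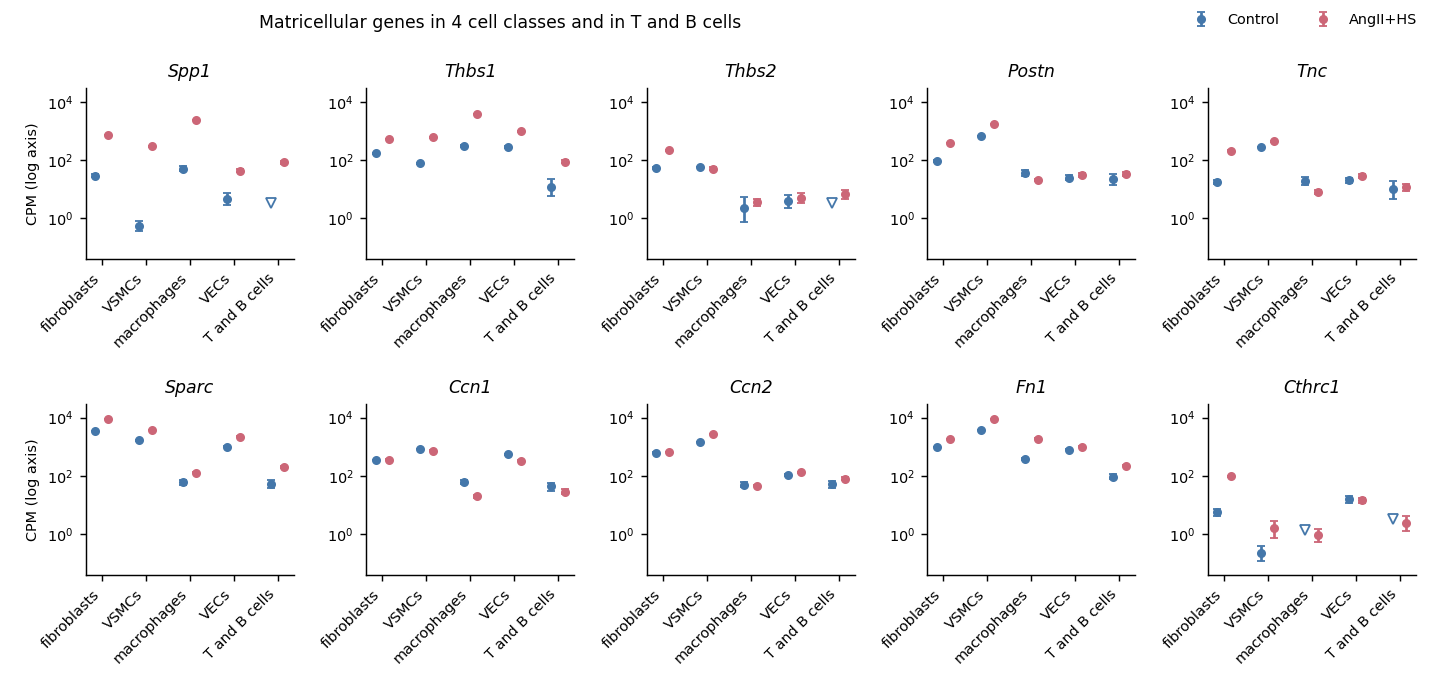
CPM on a log axis for each gene in 4 cell classes and in T and B cells, with the Control library in blue and the AngII+HS library in red. Bars are 95% Poisson intervals, and open triangles mark a level of 0, drawn at the value of 3 UMIs. *Tnc* went from 17.1 to 209 CPM in fibroblasts, while T and B cells stayed at 9.69 and 11.4 CPM.

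*Spp1* (ENSMUSG00000029304), on chromosome 5 at 104582165 to 104589235 of GRCm39 with 7 exons, encodes osteopontin, a phosphoprotein that attracts macrophages and binds the αv integrins and CD44. It was nearly absent from the Control library, with 518 UMIs in all. Control macrophages held 49.5 CPM and Control fibroblasts 28.2 CPM, while Control VSMCs held 30 UMIs or 0.552 CPM. In the AngII+HS library the level was 2353 CPM in macrophages (2332 to 2375), 704 CPM in fibroblasts (695 to 714) and 293 CPM in VSMCs (280.1 to 306.7). The log2 ratio was 5.57 in macrophages (5.30 to 5.85), 4.64 in fibroblasts (4.47 to 4.82) and 9.05 in VSMCs (8.54 to 9.63). These AngII+HS levels were 28.8, 8.62 and 3.59 times those in the T and B cells. VECs held 4.62 and 41.8 CPM, the latter 0.512 times the level in T and B cells.

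The *Spp1* level in AngII+HS differed between the clusters of a class. Within macrophages the *Arg1*-led cluster, named for arginase 1, which is typical of repair-type macrophages, had 4412 CPM in AngII+HS against 182 CPM in Control, and the *C1qa*-led cluster, which carries complement genes, had 827 against 27.8 CPM. The Control side of the *Arg1*-led cluster was 40 cells with 59 *Spp1* UMIs. Of the 8 macrophage markers, 4 were in at least 10% of these Control cells and all 8 in AngII+HS. Among fibroblasts the *Prg4*-led cluster, named for lubricin, had 5125 CPM in AngII+HS. It held 196 AngII+HS cells and 1 Control cell. The other fibroblast clusters lay between 70.5 CPM (*Sfrp4*-led) and 293 CPM (*Dio2*-led) in AngII+HS. In CPM, the *Sfrp4*-led level was below the 81.7 CPM in T and B cells of that library. The summed level of the 8 macrophage markers was 55.3 CPM in the *Prg4*-led cluster, against 154 CPM in T cells and 167 CPM in B cells of that library. The median depth of the *Prg4*-led cells was 14288.5 UMIs, and the part of depth in this level was not tested. Without that cluster the log2 ratio of *Spp1* in fibroblasts was 2.78 and that of *Tnc* 3.02. In VSMCs the *Dsp*-led cluster, named for desmoplakin, held 492 CPM and the *Des*-led cluster, named for desmin, 45.2 CPM in AngII+HS, and the tenth of AngII+HS VSMCs with the most *Spp1* held 92.3% of its UMIs in that class. The *Des*-led level, too, was below the 81.7 CPM in T and B cells. The macrophage markers summed to 65.9 CPM in AngII+HS VSMCs, below the T and B cells. The 8 fibroblast markers summed to 2494 CPM in Control and 5318 CPM in AngII+HS VSMCs, with 4 and 5 of them in at least 10% of the cells, against 897 CPM in T cells and 982 CPM in B cells of AngII+HS. The part of this in the VSMC values of *Spp1*, *Postn*, *Sparc* and the other members was not tested.

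*Thbs1* (ENSMUSG00000040152) on chromosome 2 at 117941974 to 117957616, with 22 exons, encodes a large trimeric glycoprotein that activates latent TGF-β and binds CD36 and CD47. Macrophages held 309 CPM in Control and 3813 CPM in AngII+HS, a log2 ratio of 3.63 (3.52 to 3.74). VSMCs had 76.4 and 604 CPM (2.98, 2.92 to 3.05), VECs 275 and 948 CPM (1.78, 1.69 to 1.88) and fibroblasts 167 and 525 CPM (1.66, 1.58 to 1.73). All 4 AngII+HS levels were at least 6.03 times the 87.2 CPM in T and B cells. The cluster values differed most in macrophages, with 17.8 and 801 CPM in the *C1qa*-led cluster and 2010.4 and 7824 CPM in the *Arg1*-led cluster. The value of 2010.4 CPM rests on 40 Control cells. In fibroblasts the log2 ratio was 0.80 in the *Dio2*-led, 1.02 in the *Sfrp4*-led and 3.13 in the *Comp*-led cluster. The *Comp*-led cluster held 10.3% of Control and 28.9% of AngII+HS fibroblasts. In VECs the *Cytl1*-led cluster went from 414 to 2276 CPM and the *Fabp4*-led cluster, whose leading gene is a fatty acid binding protein of capillaries, from 58.0 to 218 CPM. *Thbs1* in the unnamed *Pln*-led cluster, which also carried *Notch3* and *Higd1b* among its leading genes, did not differ between the libraries beyond counting error, at 1066 and 1049.6 CPM (log2 ratio -0.02, -0.13 to 0.09). Neutrophils held 964 and 1909 CPM.

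*Fn1* (ENSMUSG00000026193) on chromosome 1 at 71624673 to 71692419, with 46 exons, encodes fibronectin, the integrin ligand on which collagen fibrils assemble. VSMCs were the highest class in both libraries, at 3903 CPM (3887 to 3919.9) and 8742 CPM (8670.2 to 8814), a log2 ratio of 1.16 (1.15 to 1.18). Macrophages held 387 and 1906 CPM, a log2 ratio of 2.30 (2.20 to 2.40), and fibroblasts 974 and 1903 CPM, a log2 ratio of 0.97 (0.93 to 1.0) and thus just under 2-fold, with 1.17 under TMM scaling and 1.23 with equal weight per cell. The AngII+HS levels of macrophages and fibroblasts had overlapping intervals. Inside the macrophage class the 2 large clusters showed smaller ratios than the class as a whole, with 207 and 288 CPM in the *C1qa*-led cluster (log2 ratio 0.48, 0.32 to 0.64) and 1339 and 4028 CPM in the *Arg1*-led cluster (1.59, 1.45 to 1.73). T and B cells went from 94.8 to 223 CPM, so the *C1qa*-led cluster was not above free RNA in AngII+HS. Of all macrophages, 8.15% in Control, which is 40 cells, and 46.5% in AngII+HS belonged to the *Arg1*-led cluster. With the shares of the clusters held at the mean of both libraries, the log2 ratio in macrophages was 1.37, without the *Arg1*-led cluster it was 0.32, and with the libraries merged without integration it was 0.95. In fibroblasts the *Sfrp4*-led cluster hardly differed, at 1740.5 and 1928 CPM, while the *Dio2*-led and *Comp*-led clusters had log2 ratios of 1.94 and 2.12. In VECs the *Cytl1*-led cluster had 1181 and 2594 CPM (1.14, 1.07 to 1.2) and the *Fabp4*-led cluster 156 and 127 CPM (-0.29, -0.51 to -0.07). The *Fabp4*-led levels were less than 2 times the 94.8 CPM of Control T and B cells and below the 223 CPM of AngII+HS ones. The value for all VECs, 781 and 1002 CPM (0.36), thus pooled a cluster that was higher in AngII+HS with a cluster not above free RNA. Of all VECs, 59.4% in Control and 32.9% in AngII+HS belonged to the *Cytl1*-led cluster, and with cluster shares held the log2 ratio of *Fn1* in VECs was 1.02.

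**Figure D3:**
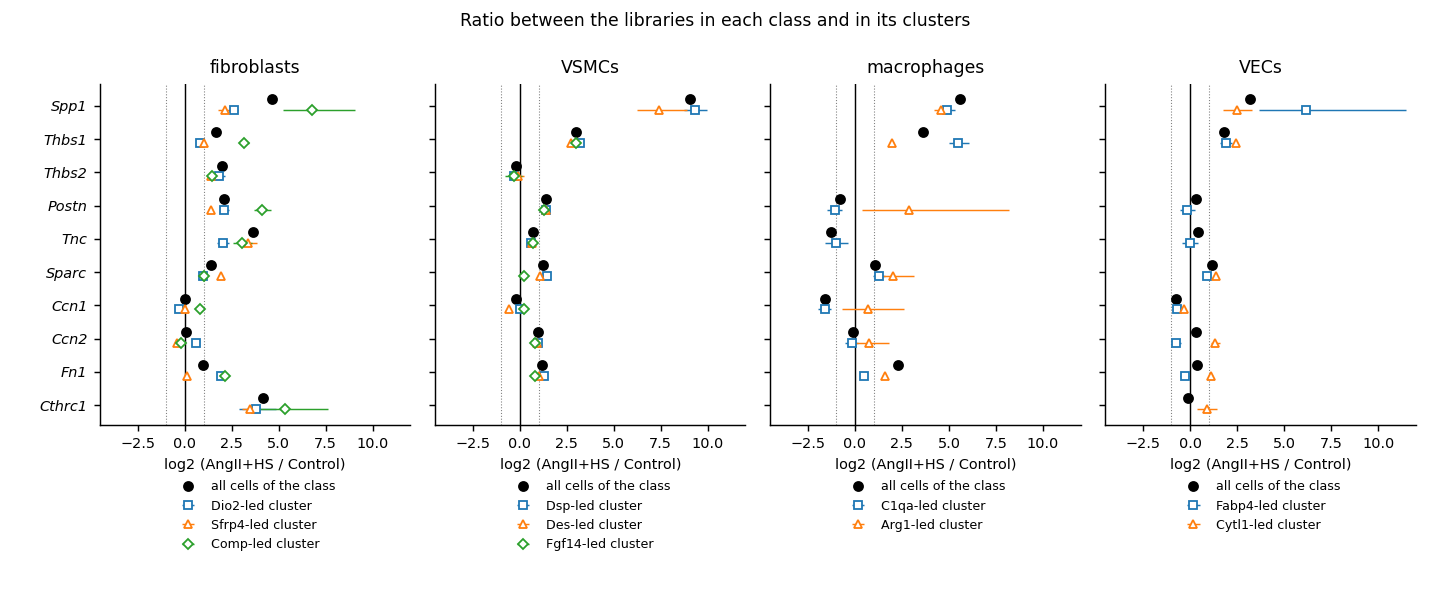
log2 ratio of AngII+HS over Control for each gene in 4 cell classes. Filled circles are all cells of a class, open symbols are its clusters with at least 20 cells in both libraries and 100 UMIs of the gene, with 95% counting intervals, and dotted lines mark 2-fold. For *Fn1* in macrophages the class value of 2.30 lay above both clusters, at 0.48 and 1.59.

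*Postn* (ENSMUSG00000027750), on chromosome 3 at 54268501 to 54298471 with 21 exons, encodes periostin, which cross-links collagen and marks activated fibroblasts. In Control it was chiefly a VSMC gene, with 655 CPM in VSMCs (648 to 662) against 89.7 CPM in fibroblasts. The AngII+HS levels were 1716 CPM in VSMCs and 375 CPM in fibroblasts, log2 ratios of 1.39 (1.36 to 1.42) and 2.06 (1.97 to 2.17). Both were far above the 32.1 CPM in T and B cells, at 53.4 and 11.7 times. The 3 VSMC clusters had like ratios, between 1.26 and 1.40, while the VSMC value was 0.95 when the libraries were merged without integration. The fibroblast clusters did not, with 33.6 and 581 CPM in the *Comp*-led cluster (4.11, 3.67 to 4.59) but 153 and 397 CPM in the *Sfrp4*-led cluster (1.38, 1.26 to 1.5). In macrophages (35.6 and 20.6 CPM) and VECs (24.2 and 29.9 CPM) *Postn* was not above free RNA in either library.

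*Tnc* (ENSMUSG00000028364), at 63878014 to 63965443 of chromosome 4 with 26 exons, encodes tenascin C, a hexameric glycoprotein that appears at sites of injury and loosens cell adhesion. Fibroblasts held 17.1 CPM in Control, not above free RNA, and 209 CPM in AngII+HS, 18.3 times the level in T and B cells. The log2 ratio was 3.61 (3.39 to 3.84) and lay above 99.1% of the genes compared in fibroblasts. The tenth of AngII+HS fibroblasts with the most *Tnc* held 91.0% of its UMIs in that class, and the *Prg4*-led cluster had 816 CPM. VSMCs had more in both libraries, 273 and 445 CPM, but a smaller ratio of 0.70 (0.65 to 0.76). Macrophages held 19.4 and 7.95 CPM, a log2 ratio of -1.28 (-1.78 to -0.76) at a level that was not above free RNA in either library, and this ratio was 0.0183 with the libraries merged without integration. Set beside the classes, the *Pln*-led cluster had the highest level of *Tnc*, 366 and 1007 CPM (1.46, 1.31 to 1.62). Lymphatic endothelial cells, 138 in Control and 157 in AngII+HS, went from 42.1 CPM (52 UMIs) to 731 CPM (624 UMIs), and 91.8% of the latter came from the tenth of the cells with the most.

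*Thbs2* (ENSMUSG00000023885) on chromosome 17 at 14885761 to 14914528, with 22 exons, encodes a relative of thrombospondin 1 that does not activate TGF-β and influences collagen fibril shape. In Control its levels in VSMCs and fibroblasts, 57.2 and 53.5 CPM, had overlapping intervals. In AngII+HS fibroblasts held 212 CPM and VSMCs 50.4 CPM, log2 ratios of 1.98 (1.85 to 2.12) and -0.18 (-0.35 to -0.02). All 3 fibroblast clusters with at least 20 cells in both libraries were higher in AngII+HS, by log2 ratios of 1.42 to 1.82. The *Comp*-led cluster, named for another member of the thrombospondin family, had the highest level at 441 CPM. Macrophages and VECs stayed at or below 5.01 CPM.

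*Cthrc1* (ENSMUSG00000054196) on chromosome 15 at 38940246 to 38950518, with 4 exons, encodes a secreted protein that is known from injured arteries and from scar-forming fibroblasts. The Control library held 161 UMIs of it, 67 of them in VECs at 15.5 CPM and 54 in fibroblasts at 5.53 CPM. The AngII+HS fibroblasts held 2762 UMIs or 98.1 CPM (94.4 to 101.8), which is 40.2 times the level in T and B cells, and the log2 ratio was 4.15 (3.76 to 4.57). In all VECs of AngII+HS it was 14.4 CPM (-0.11, -0.58 to 0.37), but the clusters differed in direction, with 18.2 and 33.7 CPM in the *Cytl1*-led cluster (48 and 74 UMIs) and 11.2 and 3.76 CPM in the *Fabp4*-led cluster (19 and 15 UMIs). The *Prg4*-led cluster had 235 CPM, the *Sfrp4*-led 108, the *Comp*-led 99.9 and the *Dio2*-led 32.6 CPM in AngII+HS. VSMCs held 12 and 10 UMIs and were not compared.

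*Sparc* (ENSMUSG00000018593), at 55285317 to 55314067 of chromosome 11 with 10 exons, encodes osteonectin, a collagen-binding protein that takes part in fibril assembly. It was the most widely detected member in fibroblasts, with a UMI in 94.5% of Control and 98.7% of AngII+HS cells, and 85.3% and 95.2% when each cell was thinned to 1000 UMIs. The same thinned share in T and B cells was 5.93% and 18.8%. Fibroblasts held 3551 and 9219 CPM, a log2 ratio of 1.38 (1.36 to 1.39), VSMCs 1643 and 3859.6 CPM (1.23, 1.21 to 1.25) and VECs 1010.1 and 2239 CPM (1.15, 1.10 to 1.2). The VSMC difference was smaller in the *Fgf14*-led cluster of low depth, 938 and 1114 CPM, and the VSMC log2 ratio was 0.97 with equal weight per cell. Macrophages held 59.9 and 126 CPM, 1.14 and 0.621 times the T and B cells, and their difference of 66.3 CPM was smaller than the 150.5 CPM by which T and B cells differed.

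*Ccn1* (ENSMUSG00000028195), at 145352720 to 145355738 of chromosome 3 with 5 exons, encodes an immediate early matrix protein. None of its differences in VSMCs, fibroblasts and VECs reached 2-fold. VSMCs held 848 and 727 CPM (log2 ratio -0.22, -0.26 to -0.18) and fibroblasts 349 and 359 CPM (0.04, -0.02 to 0.10). The fibroblast clusters went both ways, with 271 and 480 CPM in the *Comp*-led cluster (0.82, 0.66 to 0.99) and 330 and 267 CPM in the *Dio2*-led cluster (-0.30, -0.40 to -0.21). VECs were lower in AngII+HS, at 556 and 326 CPM (-0.77, -0.86 to -0.69), and so were both VEC clusters, by -0.71 and -0.32. In macrophages the ratio was -1.61 (-1.90 to -1.32), at levels of 60.8 and 19.9 CPM that were not above free RNA, and it was -0.34 with the libraries merged without integration. The VSMC clusters ranged from a log2 ratio of -0.60 (*Des*-led) to 0.25 (*Fgf14*-led), with 753 and 752 CPM in the *Dsp*-led cluster. Its promoter is the one printed above with a TEAD match and a TATA box.

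*Ccn2* (ENSMUSG00000019997) on chromosome 10 at 24471333 to 24474900, with 5 exons, encodes connective tissue growth factor, which is induced by TGF-β. VSMCs held 1438 and 2761 CPM, a log2 ratio of 0.94 (0.92 to 0.96), and fibroblasts 624 and 664 CPM (0.09, 0.05 to 0.13). Among fibroblast clusters the *Dio2*-led one had 991 and 1530 CPM (0.63, 0.58 to 0.68), the *Sfrp4*-led one 240.1 and 182 CPM (-0.40, -0.51 to -0.29) and the *Comp*-led one a log2 ratio of -0.17. Its 3 VSMC clusters lay between 0.83 and 0.99. In the *Pln*-led cluster it went the other way, from 554 to 214 CPM (-1.37, -1.59 to -1.16). VECs differed by cluster, with 89.7 and 227 CPM in the *Cytl1*-led and 128 and 77.1 CPM in the *Fabp4*-led cluster, while the T and B cells held 50.6 and 79.7 CPM.

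Because the class makeup differed so much between the libraries, the cells that supplied each transcript were counted. The shares below also reflect how much RNA of all genes a class held. VSMCs held 54390430 of all 75294050 UMIs in Control and 6463328 of 80581691 in AngII+HS. Of the AngII+HS UMIs, fibroblasts held 28168578 and macrophages 19621145. In Control, VSMCs held 95.1% of the *Postn* UMIs (94.9 to 95.3%), 94.0% of *Tnc*, 93.1% of *Fn1*, 91.1% of *Ccn2*, 85.9% of *Ccn1* and 83.6% of *Thbs2*. In AngII+HS, fibroblasts held 94.1% of the *Cthrc1* UMIs (93.2 to 94.96%), 90.6% of *Thbs2*, 82.9% of *Sparc*, 51.2% of *Ccn1* and 50.02% of *Tnc*. The *Postn* UMIs of AngII+HS were split between VSMCs, 44.7%, and fibroblasts, 42.6%. For *Fn1* the AngII+HS shares were 35.5% in VSMCs, 33.7% in fibroblasts and 23.5% in macrophages. Of these classes, fibroblasts (1903 CPM) and macrophages (1906 CPM) lay below the 1973 CPM of all AngII+HS cells, and VSMCs (8742 CPM) above it. Macrophages held 65.7% of the *Thbs1* UMIs (65.4 to 65.95%) and 63.3% of *Spp1* (62.9 to 63.6%), and neutrophils 10.4% of *Thbs1*. VSMC shares of *Thbs1* were 43.0% in Control and 3.43% in AngII+HS.

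**Figure D4:**
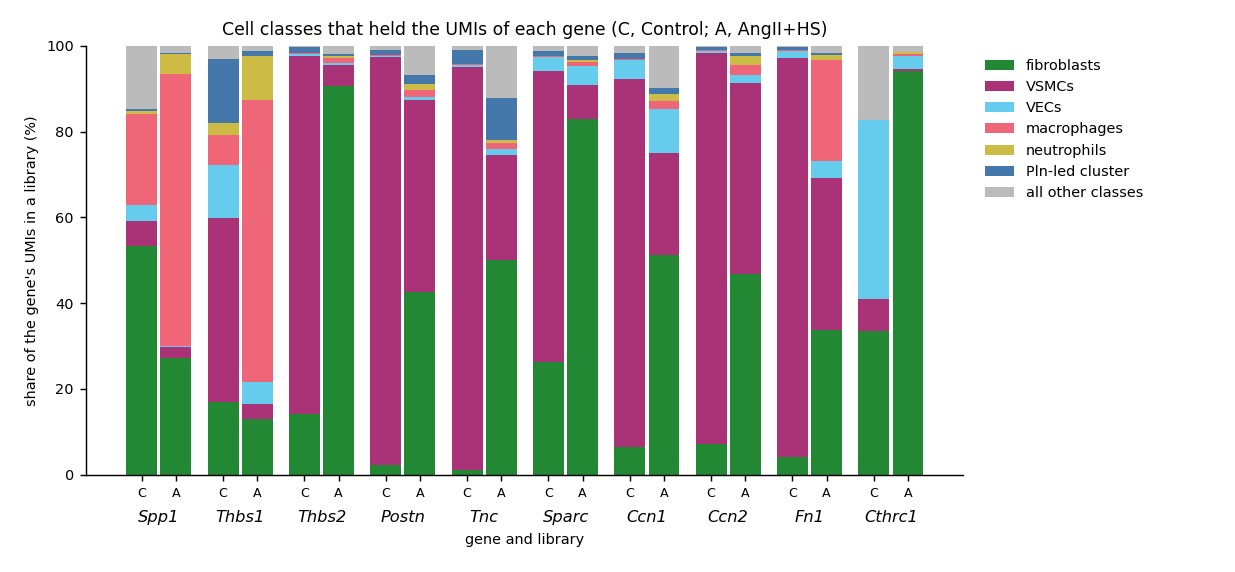
Share of the UMIs of each gene, in percent of its UMIs in a library, that lay in each cell class, with Control (C) and AngII+HS (A) side by side. VSMCs held 95.1% of the *Postn* UMIs in Control and 44.7% in AngII+HS, and macrophages held 65.7% of the *Thbs1* UMIs in AngII+HS.

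The level in a whole library therefore differed from that in its classes, and such a sum does not separate fewer cells of a class from less RNA per cell. Taken separately, VSMCs were 53.2% of Control and 4.50% of AngII+HS cells, with medians of 9697.5 and 6953 UMIs per cell. Over all cells *Fn1* was 3030.2 CPM in Control and 1973 CPM in AngII+HS (log2 ratio -0.62, -0.63 to -0.61), and *Postn* (-0.69), *Tnc* (-0.53), *Ccn2* (-1.20) and *Ccn1* (-1.54) were lower too. With the Control share of each class in the UMIs held and the AngII+HS levels put in, the same 4 genes *Fn1*, *Postn*, *Tnc* and *Ccn2* were higher, by log2 values of 1.14, 1.39, 0.87 and 0.88, and *Ccn1* stayed lower by -0.22. With the AngII+HS shares and the Control levels all 5 were lower, between -1.35 for *Ccn1* and -2.19 for *Tnc*. *Spp1* (7.04), *Cthrc1* (4.09) and *Thbs1* (3.46) were higher in the AngII+HS library as sequenced, and their values from levels alone were 5.80, 2.81 and 2.45.

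**Figure D5:**
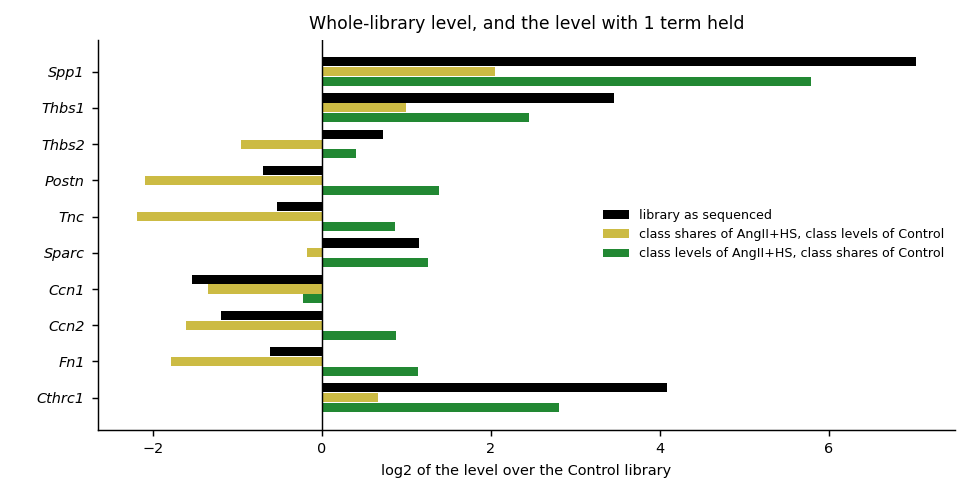
log2 of the level of each gene over its level in the Control library: as sequenced (black), with the class shares of AngII+HS and class levels of Control (yellow), and with the class levels of AngII+HS and class shares of Control (green). *Postn* was at -0.69 as sequenced and at 1.39 with the Control shares held.

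The members were next compared cell by cell in AngII+HS, with each cell thinned to 1000 UMIs and shallower cells left out. Among the 4307 macrophages deep enough, the expected share with a UMI was 37.0% for *Spp1*, 59.1% for *Thbs1* and 50.4% for *Fn1*, while the T and B cells had 8.06%, 8.52% and 20.7%. *Thbs1* was found in 77.0% of *Spp1*-positive and 48.6% of *Spp1*-negative macrophages, and *Fn1* in 69.4% and 39.2%. In the 4558 fibroblasts *Postn* was found in 36.5% of *Cthrc1*-positive and 22.6% of *Cthrc1*-negative cells, and *Tnc* in 19.1% of *Spp1*-positive and 6.61% of *Spp1*-negative cells. Cells share 1 library, so these shares are a description. They also pool the clusters of a class, which differed in level. *Spp1*, *Thbs1* and *Fn1* were at 4412, 7824 and 4028 CPM in the *Arg1*-led cluster of AngII+HS. In the *C1qa*-led cluster they were at 827, 801 and 288 CPM, and in the T and B cells at 81.7, 87.2 and 223 CPM. Among fibroblasts the *Prg4*-led cluster was high in both *Spp1* and *Tnc*. Shares within clusters were not computed, so the part of cluster makeup was not tested.

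Over 22 points, each a class in 1 library with at least 50 cells, the gene whose level was most like that of each member was sought among 11959 genes by Pearson's r of log2(CPM + 5). The points share libraries and free RNA. *Sparc* was most like the fibrillar collagen gene *Col5a2* (r = 0.98), *Ccn1* most like *Amotl2* (0.97), which encodes an angiomotin, and *Ccn2* most like *Wfdc1* (0.96). *Tnc* was most like *8030451A03Rik* (0.94) and had *Postn* as the third in order (0.91). *Thbs2* was most like *Efemp2* (0.94), which encodes fibulin 4, *Postn* most like *Gnai1* (0.93) and *Fn1* most like *Ecm1* (0.90). The likeness was lower for *Cthrc1*, *Thbs1* and *Spp1*, with *Enc1* at 0.86, *Il13ra1* at 0.82 and the chemokine gene *Ccl8* at 0.82.

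Beyond VSMCs, fibroblasts, macrophages and VECs, the neural class, which carried Schwann cell markers, was a further source. Its *Slc35f1*-led cluster held 633 and 1170.1 CPM of *Postn*, 267 and 675 CPM of *Tnc* and 893 and 1098 CPM of *Ccn1*. Neutrophils had 3 *Spp1* UMIs in Control and 3458 in AngII+HS, or 11.04 and 556 CPM, the latter above the 81.7 CPM of T and B cells. Macrophage markers summed to 394 and 451 CPM in neutrophils and fibroblast markers to 305 and 1563 CPM, and the AngII+HS sums were higher than those in T cells (154 and 897 CPM) and B cells (167 and 982 CPM) of that library. The median depth of neutrophils was 1266 UMIs in AngII+HS, the lowest of the leukocyte classes. The part of these markers and of depth in the *Spp1* level was not tested.

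The wider family was read from a list of 22 other matricellular genes. In fibroblasts 15 had 100 UMIs, of which 5 were at least 2-fold higher in AngII+HS and 4 at least 2-fold lower. The higher ones were *Tnn* (1.84 and 18.8 CPM), the CCN genes *Ccn3* (62.7 and 590.1 CPM), *Ccn4* and *Ccn5*, and *Comp* (91.8 and 461 CPM), and the lower ones *Tgfbi* (694 and 154 CPM), *Spock2*, *Sparcl1* and *Tnxb* (316 and 139 CPM), which encodes the tenascin of elastic skin and vessels. In VSMCs 6 of 16 were at least 2-fold higher and none lower, led by *Smoc2* (9.05 and 148 CPM), with *Sparcl1* in the opposite direction to fibroblasts (142 and 467 CPM). *Tgfbi* was also among these 6, at 1.60 and 7.43 CPM, below the 14.6 CPM in AngII+HS T and B cells. Macrophages had 4 of 9 higher and none lower, of which *Ecm1* (63.96 and 271 CPM) was above free RNA and *Comp*, *Smoc2* and *Ccn5* were below the T and B cells in AngII+HS. VECs had 1 of 7 higher and 1 lower. Over all genes compared, the shares at least 2-fold higher and lower were 5.15% and 4.52% in fibroblasts and 3.13% and 6.73% in VSMCs. They were 8.99% and 11.3% in macrophages and 5.16% and 3.79% in VECs.

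Receptors for these proteins were read from a list of 22 genes. Of these, 3 of 21 with 100 UMIs were at least 2-fold higher and 3 lower in fibroblasts, 3 and 0 of 20 in VSMCs, 2 and 4 of 18 in macrophages, and 2 and 3 of 17 in VECs, with medians between -0.13 and 0.04. The shares of all genes higher and lower were 5.15% and 4.52% in fibroblasts and 3.13% and 6.73% in VSMCs. In macrophages they were 8.99% and 11.3%, and in VECs 5.16% and 3.79%. In macrophages *Cd36*, the scavenger receptor that binds thrombospondins, had 1056 and 312 CPM (-1.76, -1.83 to -1.69), and *Lrp1*, an endocytic receptor for them, 200.5 and 476 CPM (1.25, 1.11 to 1.39). Syndecan 1 (*Sdc1*) was higher in macrophages (4.05 and 46.8 CPM) and fibroblasts (40.5 and 125 CPM) and lower in VECs (60.9 and 24.7 CPM). The integrin gene *Itga9*, a receptor for tenascin C and osteopontin, had 221 and 76.7 CPM in VECs. All 3 receptor genes on the higher side in VSMCs, *Cd36*, *Itgam* and *Stab1*, were below the T and B cells in AngII+HS.

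Immediate early genes, which respond to stimuli and also to the digestion of tissue, were taken as a list of 21 because *Ccn1* is itself one. Their summed level was 35586 CPM in Control VSMCs and 17400 CPM in AngII+HS VSMCs, with 10 at least 2-fold lower and none higher, among them *Egr1* (4776 and 1642 CPM). Macrophages had 9 and VECs 3 at least 2-fold lower, with summed levels of 21623 and 12847 CPM and of 24696 and 17447 CPM. In fibroblasts the sums were 22938 and 21631 CPM, and 1 gene, *Hspa1a*, was 2-fold higher. Of all genes compared, 6.73% were at least 2-fold lower in VSMCs, 11.3% in macrophages and 3.79% in VECs. In fibroblasts 5.15% were higher. *Ccn1* was lower in VECs (log2 ratio -0.77) and in macrophages, where it was not above free RNA. In VSMCs it was lower as a class (-0.22), with clusters from -0.60 (*Des*-led) to 0.25 (*Fgf14*-led). In fibroblasts it was near its Control level as a class but not in each cluster. The part of tissue digestion in the *Ccn1* levels was not tested.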

How the data were processed

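Per the labels and the study's methods, abdominal aortas were pooled for 1 droplet library per condition, and the deposited matrices hold raw counts of UMIs for each gene and barcode, with no normalization by the authors. The matrix headers name Cell Ranger 8.0.1, the methods an earlier version on GRCm39, and the submitters' processing notes the build mm10. Of 33696 gene IDs, 98.5% were found in GENCODE vM39, from which positions were taken, and promoters came from the RefSeq table (GRCm38.p6), were matched to GRCm39 and, where a gene had 2 starts, are those nearest to its annotated start.

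Cells with at least 500 UMIs, 200 genes and under 20% mitochondrial UMIs were kept. Scrublet (scanpy 1.11.5) gave doublet scores, and the top 0.8% per 1000 cells were removed, 1019 Control and 4826 AngII+HS cells. Libraries were integrated with Seurat 5.3.0 (R 4.3.3) on 2000 variable genes without the members and 22 related genes, and clustered on 30 components at resolution 0.8. The barcode lists share 67 barcodes. Clusters were named from marker lists, and the *Pln*-led cluster, which scored highest for VSMC markers but had 2 pericyte markers among its 10 leading genes, stayed unnamed. UMIs were summed per class and library (Python 3.11.15, numpy 2.4.6, scipy 1.17.1, pandas 2.3.3, matplotlib 3.10.9). Levels have exact Poisson intervals, ratios exact conditional binomial intervals, and shares exact binomial intervals, all at 95%. A gene at 0 in a library was set to 3 UMIs in ratios. The ratio step was tested on simulated Poisson counts without free RNA or variation between mice or libraries. That test covers only the arithmetic and the counting intervals. TMM factors came from edgeR 4.0.16.

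Named genes are the 10 members, list genes at least 2-fold different with 100 UMIs, the genes most like each member (r over points with at least 20 CPM in 1 of them), and leading genes of clusters. The members and lists were chosen with earlier results of these data known. Alternatives concerned doublets, cell filter, integration, resolution, variable genes, scaling, weighting, free RNA and the UMI minimum.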

Additional observations from a re-analysis of the deposited data

Results flagged for a closer look

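*Tnc* was the only member that was at least 2-fold higher in 1 of the 4 main classes and at least 2-fold lower in another. Its log2 ratio was 3.61 in fibroblasts and -1.28 in macrophages, a difference of 4.89 that was not tested, since each class has 1 library per condition. The macrophage level, 19.4 CPM in Control and 7.95 CPM in AngII+HS, was not above free RNA in either library.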

How the results depend on the processing

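Of 36 member-by-class ratios with 100 UMIs, 21 were past 2-fold, and of their 277 values under the alternatives 274 kept the sign and 261 stayed past 2-fold. There were 3 reversals. *Tnc* in macrophages reversed when the libraries were merged without integration (log2 ratio 0.0183). With free RNA subtracted, *Sparc* in macrophages (-5.54) and *Spp1* in VECs (-3.25) reversed, whose AngII+HS levels lay below those in T and B cells. Nothing was left of these AngII+HS levels, which were set to 3 UMIs, so the size of both values comes from that minimum. Subtraction was in CPM, and the median depth was 2128.5 UMIs in T and B cells, 4040 in macrophages and 3952 in VECs. Per cell neither level was below. There were 2476 *Sparc* UMIs in 4469 macrophages against 1000 in 2092 T and B cells. For *Spp1* there were 259 UMIs in 1203 VECs against 402. Subtraction per cell was not run. The counts of lower members with free RNA subtracted, given next, include values set to 3 UMIs. TMM scaling raised ratios by 0.21 in fibroblasts and 0.33 in macrophages. The number of members at least 2-fold lower in macrophages, 2, was 1 without doublet removal, with double the doublets removed, with the members among the variable genes, under TMM scaling, with equal weight per cell and with cluster shares held, 0 when merged and 4 with free RNA subtracted. In VECs 5 members were higher without doublet removal instead of 3, and 2 were lower with free RNA subtracted instead of 0. Without the *Arg1*-led cluster 2 members were higher in macrophages instead of 4, *Fn1* at 0.32 and *Sparc* at 0.94 falling short. *Tnc* in VECs was at 1.16 without doublet removal and *Fn1* in VECs at 1.02 with cluster shares held, both just past 2-fold. Leaving out a cluster and holding cluster shares were chosen after seeing the data. Counts in fibroblasts and VSMCs, and counts above free RNA, stayed within 1.5 times under every alternative run. With 1 library per condition there are no replicates to leave out. *Cthrc1* in VSMCs and macrophages and *Thbs2* in macrophages and VECs had fewer than 100 UMIs and were not compared.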

Other observations

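In T and B cells *Spp1*, *Thbs1*, *Thbs2*, *Sparc*, *Ccn2* and *Fn1* were higher in AngII+HS beyond counting error and *Ccn1* was lower, at 43.1 and 28.9 CPM, while *Postn*, *Tnc* and *Cthrc1* did not differ beyond it. Relative to the whole library their level was 0 to 0.0922 times that of all cells in Control and 0.0523 to 0.160 times in AngII+HS, with *Ccn2* at the top of the latter range and *Thbs1* the only member whose fraction was smaller in AngII+HS (0.0922 and 0.0617).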
